A study of Mus musculus with 12 samples.

Results

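The 10 genes described here are known, mainly from studies of mouse embryonic stem cells, to activate or restrain the 2-cell-like state. They were chosen by name for these published roles: the activators Dppa2 and Dppa4, and the repressors Trim28, Setdb1, Kdm1a, Zmym2, Chaf1a, Chaf1b, Pcgf6 and Ehmt2. All 10 names were found among the 41079 gene identifiers of the deposited tables, and all 10 were among the 14107 genes tested, which had a mean of at least 1 TPM (transcript abundance scaled by gene length and to the same total in each library) over the 12 libraries.

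The 2-cell-like state is a rare, reversible condition of embryonic stem cell cultures in which genes of the mouse 2-cell embryo, such as the Zscan4 family, are transcribed. DPPA2 and DPPA4 act upstream of the transcription factor DUX, which switches this program on. The repressors keep it off in several ways. SETDB1, recruited by TRIM28, and G9a, the product of Ehmt2, methylate histone H3 at silent chromatin. LSD1, the product of Kdm1a, works with CoREST proteins and ZMYM2 and removes activating methylation from histone H3. CAF-1, with subunits from Chaf1a and Chaf1b, packs new DNA into nucleosomes during replication. PRC1.6, which contains PCGF6, acts by polycomb repression.

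RNA was sequenced from 4 groups of 3 libraries, each labelled as biological replicates: Bod1L KO cells with etoposide, Bod1L KO cells without it, wild-type (WT) cells with etoposide, and WT cells without it. Bod1l encodes a subunit of the SETD1A histone methyltransferase complex, and etoposide is a topoisomerase II poison that causes DNA double-strand breaks. The titles of both KO groups also carry the word Tamoxifen and those of both WT groups do not, so knockout and tamoxifen cannot be told apart in any comparison of genotypes. The labels used here give no dose or time for either agent, no clone and no description of the deleted part of Bod1l. Separate cultures are not mentioned for the replicates, and each p-value therefore rests on how far these particular libraries spread, which may be technical.

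Bod1l itself stood at 11.6 ± 0.415 TPM in untreated KO and 49.3 ± 1.12 TPM in untreated WT, and at 12.4 ± 0.602 TPM in etoposide-treated KO and 48.7 ± 2.31 TPM in etoposide-treated WT (mean ± SD, n = 3 each). Aligned depth, inferred from the deposited values, was between 5.233 and 7.757 gigabases per library. Its group means were 7.28 in treated KO, 5.87 in untreated KO, 6.53 in treated WT and 6.88 in untreated WT. The regulators were covered at a mean depth of 66.8 to 4557 reads per base, and their coefficient of variation within a group had a median of 2.31% and a maximum of 13.9%. All 7 embryonic stem cell markers found in the tables had group means of at least 157 TPM. Their summed level was 7135 to 7252 TPM in untreated KO and 7805 to 7816 TPM in untreated WT, and 6809 to 7127 TPM in treated KO and 7357 to 7693 TPM in treated WT. The lower sum in KO came mainly from Dppa5a, at 3259 TPM in untreated KO and 3806 TPM in untreated WT, and from Pou5f1. These were the 2 markers called lower in untreated KO, and none was called higher there (background 49.6% of tested genes). Under etoposide 4 of the 7 were called higher and 2 lower (background 44.1%), and 2 of these 6 calls held in every alternative processing. Among markers of other cells, 7 extraembryonic endoderm genes summed to 6.56 to 7.63 TPM in untreated KO and 3.56 to 4.46 TPM in untreated WT, and to 7.05 to 8.13 TPM in treated KO and 5.14 to 7.16 TPM in treated WT. The summed level of 6 trophectoderm genes was 74.9 to 76.0 TPM in untreated KO and 86.3 to 91.9 TPM in untreated WT. Of the 5 tested, Tfap2c (32.4 TPM in untreated KO and 47.7 TPM in untreated WT) and Eomes were called lower and Cdx2 (3.25 TPM in untreated KO and 2.11 TPM in untreated WT) higher. The background is again 49.6%, and 1 of these 3 calls held in every alternative processing. The 7 feeder fibroblast genes summed to at most 7.50 TPM in any library, with Col3a1, Postn, Lum and Dcn each listed at 0 in all libraries of at least 1 group. The part of these marker levels in the results on the regulators was not tested.

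The regulators were abundant RNAs, and their order by level was the same in untreated KO and untreated WT. Trim28 was the highest, at 1558 ± 27.5 TPM in untreated KO and 1654 ± 4.97 TPM in untreated WT, within the top 0.532% and 0.51% of tested genes. Kdm1a and Setdb1 followed, and Zmym2 was the lowest, at 37.5 ± 1.5 TPM in untreated KO and 45.5 ± 2.47 TPM in untreated WT. TPM is scaled by gene length, so these levels can be set side by side between genes. In untreated KO the libraries of Chaf1a and Dppa4 overlapped as neighbours in that order, as did those of Chaf1b and Pcgf6. In untreated WT the overlapping neighbours were Ehmt2 with Chaf1b and Pcgf6 with Dppa2.

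**Figure D1:**
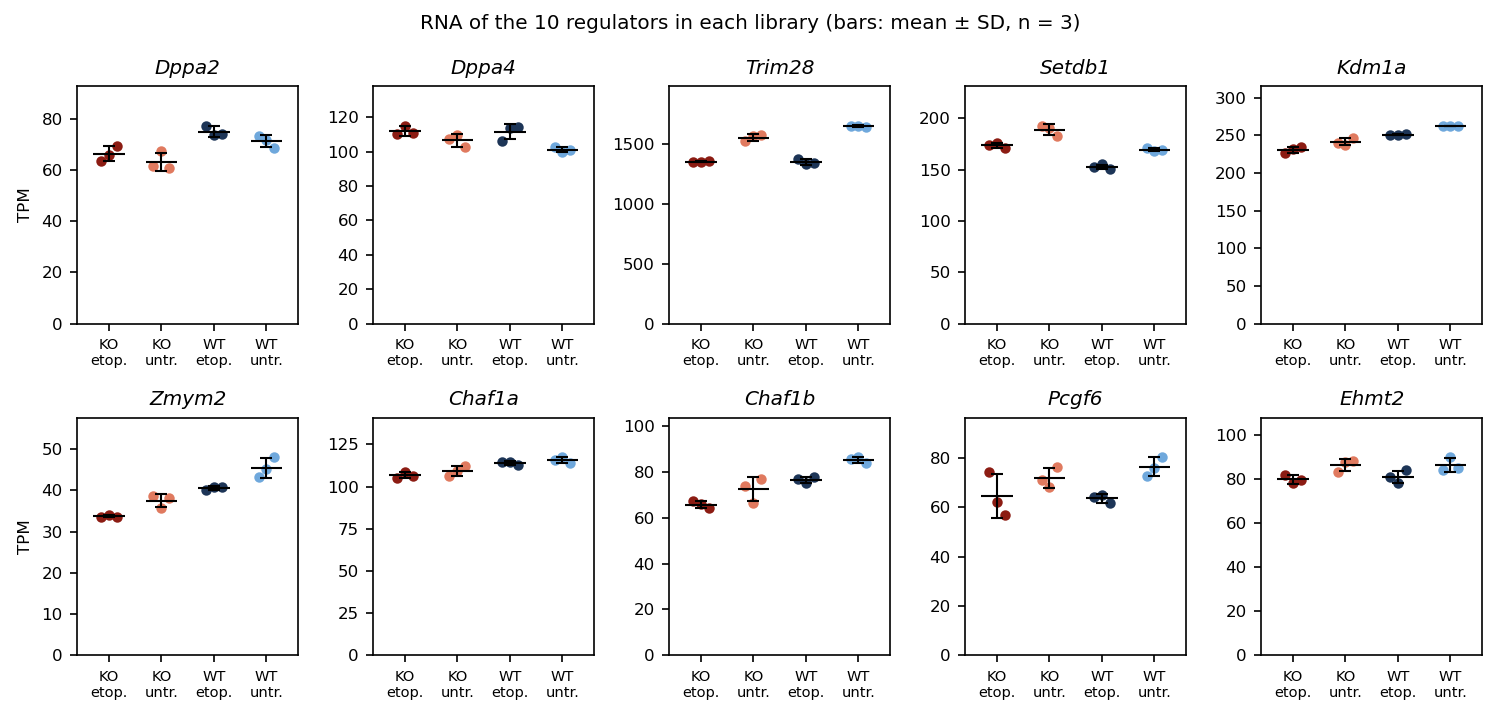
TPM of each of the 10 regulators in every library, with 1 panel per gene and axes that start at 0. Points are libraries, and bars give the mean and SD of 3 libraries in each of treated KO, untreated KO, treated WT and untreated WT. Setdb1 stands higher in KO than in WT, Zmym2, Kdm1a, Chaf1a, Chaf1b and Dppa2 stand lower, and Trim28 is lower in both etoposide-treated groups.

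In untreated cells, 7 of the 10 regulators differed between the genotypes: Setdb1 was higher in KO, and Zmym2, Chaf1b, Dppa2, Kdm1a, Trim28 and Chaf1a were lower (limma on log2(TPM + 1) across all tested genes, Benjamini-Hochberg adjusted p under 0.05). These changes were small, from −0.27 to 0.16 on the log2 scale. Among all tested genes 49.6% were called in this comparison, 28.1% as higher and 21.5% as lower, and the count of 7 of 10 is to be read against that background. Of the 4786 genes as abundant as the regulators, 54.7% were called. A change at least as large as that of Zmym2, the largest of the 10, was seen in 34.7% of tested genes. Dppa4, Pcgf6 and Ehmt2 did not pass the test.

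Under etoposide 6 of the 10 differed between the genotypes, with Setdb1 again higher in KO and Zmym2, Chaf1b, Dppa2, Kdm1a and Chaf1a again lower (background 44.1% of tested genes, 22.5% higher and 21.7% lower). Of the genes as abundant as the regulators, 50.2% were called under etoposide. The libraries of the untreated and the treated comparison are separate, and only the estimate of the spread is shared. In each comparison the libraries of KO and WT failed to overlap for exactly the genes that were called, 1 above and 6 below in untreated cells and 1 above and 5 below under etoposide. Libraries failed to overlap for 57.4% of all tested genes in untreated cells and for 54.3% under etoposide.

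**Figure D2:**
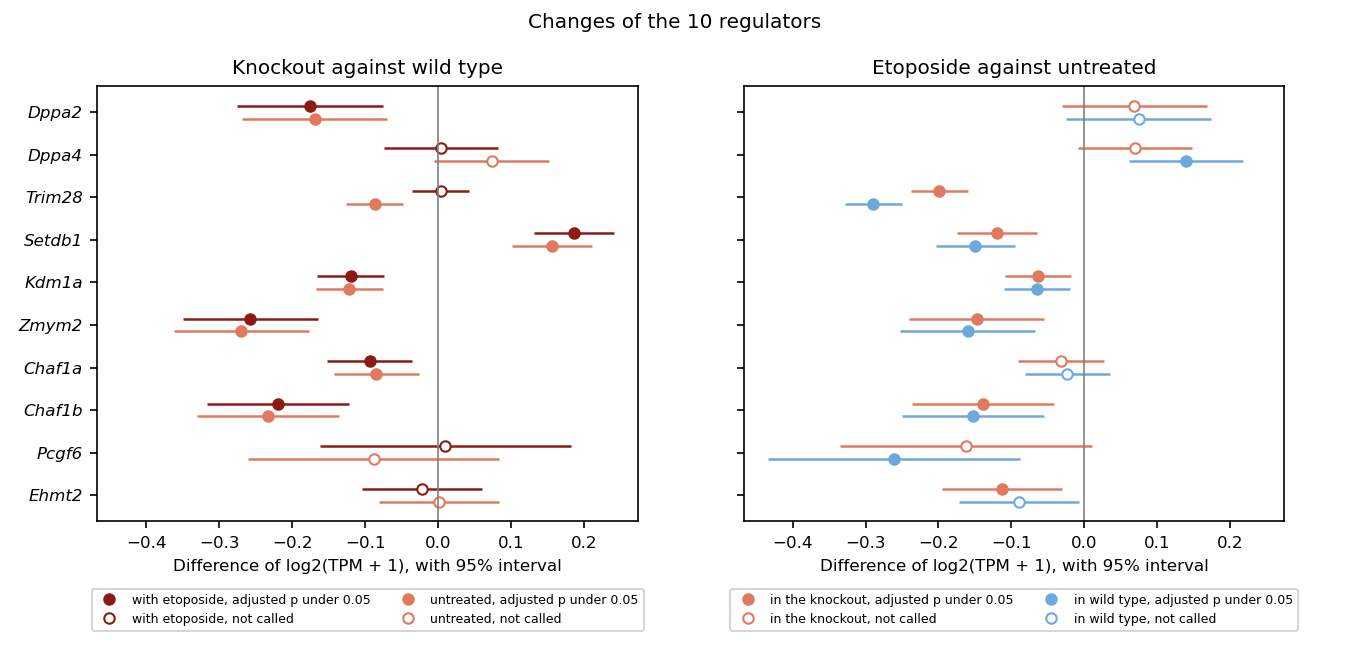
Difference of log2(TPM + 1) of each regulator with its 95% interval from the limma fit, for KO minus WT (left) and for etoposide minus untreated (right). Filled points had an adjusted p under 0.05. On the left the 2 points of a gene lie furthest apart for Pcgf6, at 0.01 under etoposide and −0.09 in untreated cells, and for Trim28, at 0.00 and −0.09. On the right the 8 repressors lie below 0 and the 2 activators above it.

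Of the activators, Dppa2 was lower in KO and Dppa4 was not. DPPA2 and DPPA4 are DNA-binding proteins that work as a pair. Their genes lie next to each other on the plus strand of chromosome 16, Dppa4 at 48104098 to 48114655 and Dppa2 at 48130637 to 48139876, with a gap of 15981 bases (GRCm39, from the deposited tables). Dppa2 had 61.8, 67.3 and 60.7 TPM in the untreated KO libraries, against 73.3, 71.7 and 68.6 TPM in untreated WT. With etoposide the values were 63.6, 66.0 and 69.5 TPM in KO, against 77.4, 73.6 and 74.1 TPM in WT. Every KO library lay below every WT library of the same treatment. The log2 change was −0.17 ± 0.05 in untreated cells (± SE, limma adjusted p = 0.00864) and −0.18 ± 0.05 under etoposide (adjusted p = 0.00823), so that Dppa2 fell by 11.1% and by 11.5% on the scale of the fit.

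Dppa4 had 107, 109.8 and 102 TPM in untreated KO, against 103, 99.7 and 101 TPM in untreated WT. Under etoposide it had 109.9, 115 and 111 TPM in KO, against 106, 114 and 114 TPM in WT. The genotypes overlapped under both treatments, with changes of 0.07 (95% interval −0.00 to 0.15, limma adjusted p = 0.108) and 0.00 (−0.07 to 0.08, adjusted p = 0.94). The untreated change was called as higher in KO with quantile normalization and without replicate 3 of untreated KO.

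The level of Dppa2 relative to its partner was also lower in KO. The ratio of Dppa2 to Dppa4 was 0.576, 0.613 and 0.593 in untreated KO, against 0.712, 0.719 and 0.681 in untreated WT. Under etoposide it was 0.579, 0.574 and 0.629 in KO, against 0.728, 0.647 and 0.648 in WT. The ranges did not overlap in either comparison. An exact two-sided permutation test gave p = 0.1 for each, the smallest that 3 libraries against 3 allow, and p = 0.1 after adjustment over the 6 ratio tests run. These ratios, like those of the other pairs below, were chosen after the values of the genes had been seen.

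TRIM28 and SETDB1 act in the same pathway, but their RNAs moved in opposite directions in untreated cells. TRIM28 is the corepressor that zinc-finger proteins bring to retroviral and imprinted sequences, and SETDB1 is the methyltransferase it recruits. Setdb1 (chromosome 3, 95230836 to 95264513, minus strand) had 193, 191 and 183 TPM in untreated KO, against 171, 168 and 169 TPM in untreated WT. In etoposide-treated cells it had 174, 176 and 171 TPM in KO, against 152, 155 and 151 TPM in WT. All KO libraries lay above all WT libraries of the same treatment, and Setdb1 was the regulator called higher. Its change was 0.16 ± 0.02 in untreated cells (limma adjusted p = 0.000267) and 0.19 ± 0.02 under etoposide (adjusted p = 8.5e-05), or 11.5% and 13.8% on the scale of the fit. Setdb1 overlaps Cers2 on the opposite strand by 75 bases, and whether the counting used the strand is not given in the sources used here. Cers2 stood at 132.7 TPM in untreated KO and 124.0 TPM in untreated WT, and its part in the Setdb1 values was not tested.

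Trim28 (chromosome 7, 12758079 to 12764959, plus strand) had 1527, 1567 and 1579 TPM in untreated KO, against 1658, 1656 and 1648 TPM in untreated WT. The treated libraries had 1353, 1356 and 1362 TPM in KO, against 1380.2, 1338 and 1342 TPM in WT. Untreated KO lay below untreated WT without overlap, and the treated groups overlapped. The change was −0.09 ± 0.02 in untreated cells (limma adjusted p = 0.00179) and 0.00 ± 0.02 under etoposide (adjusted p = 0.892). The ratio of Trim28 to Setdb1 was 7.91, 8.20 and 8.61 in untreated KO, against 9.68, 9.83 and 9.75 in untreated WT. Under etoposide the ratio was 7.77, 7.68 and 7.94 in KO, against 9.06, 8.62 and 8.90 in WT, again without overlap (exact permutation p = 0.1 for each, the smallest possible).

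LSD1 and ZMYM2 belong to one repressor assembly, and the RNAs of both were lower in KO. Zmym2 encodes a zinc-finger protein that binds SUMO and joins LSD1 with CoREST. Zmym2 (chromosome 14, 57123986 to 57199815, plus strand) had 38.6, 35.8 and 38.2 TPM in untreated KO, against 43.2, 45.2 and 48.1 TPM in untreated WT. Under etoposide it had 33.6, 34.1 and 33.6 TPM in KO, against 40.1, 40.9 and 40.8 TPM in WT. The genotypes did not overlap, and the changes, −0.27 ± 0.04 (limma adjusted p = 0.000247) and −0.26 ± 0.04 (adjusted p = 0.000432), were the largest of the 10 genes in both comparisons.

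Kdm1a, the gene of the demethylase LSD1 (chromosome 4, 136277844 to 136330127, minus strand), had 240.3, 237 and 246 TPM in untreated KO, against 262, 263 and 263 TPM in untreated WT. Under etoposide Kdm1a had 227, 231 and 235 TPM in KO, against 251, 251 and 251 TPM in WT. KO was below WT without overlap in both, by −0.12 ± 0.02 each time (limma adjusted p = 0.000482 untreated and 0.000655 with etoposide), so that Kdm1a fell by 8.06% and by 7.96% on the scale of the fit. Kdm1a shares 4193 bases with Luzp1 on the opposite strand, which stood at 56.9 TPM in untreated KO and 56.7 TPM in untreated WT.

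Both genes of the CAF-1 histone chaperone that are unique to it were lower in KO, with the larger estimate for Chaf1b. Chaf1b (chromosome 16, 93680801 to 93703003, plus strand) had 74.1, 66.7 and 77.0 TPM in untreated KO, against 85.5, 86.6 and 83.9 TPM in untreated WT. Among treated libraries it had 67.2, 65.9 and 64.2 TPM in KO, against 76.8, 75.4 and 77.9 TPM in WT. No KO library reached a WT library of the same treatment. The change was −0.23 ± 0.04 (limma adjusted p = 0.00103) in untreated cells and −0.22 ± 0.04 (adjusted p = 0.0019) under etoposide.

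Chaf1a (chromosome 17, 56347404 to 56375027, plus strand) had 106, 109 and 112 TPM in untreated KO, against 116, 118 and 114 TPM in untreated WT. Under etoposide it had 105, 109 and 106 TPM in KO, against 114, 115 and 113 TPM in WT. The groups again did not overlap, with changes of −0.08 ± 0.03 (limma adjusted p = 0.0199) and −0.09 ± 0.03 (adjusted p = 0.0139). The untreated call ended when the compared groups were fitted alone, without replicate 2 of untreated WT and without replicate 1 of untreated KO, and the call under etoposide ended without replicate 1 of treated KO. The ratio of Chaf1a to Chaf1b was 1.43, 1.64 and 1.46 in untreated KO, against 1.35, 1.36 and 1.36 in untreated WT, and 1.57, 1.65 and 1.66 in treated KO, against 1.49, 1.52 and 1.45 in treated WT. It was higher in KO without overlap in both (exact permutation p = 0.1, the smallest possible). Chaf1a shares 983 bases with Ubxn6 on the opposite strand. Ubxn6 stood at 31.9 TPM in untreated KO and 27.7 TPM in untreated WT, and its part in the Chaf1a values was not tested.

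**Figure D3:**
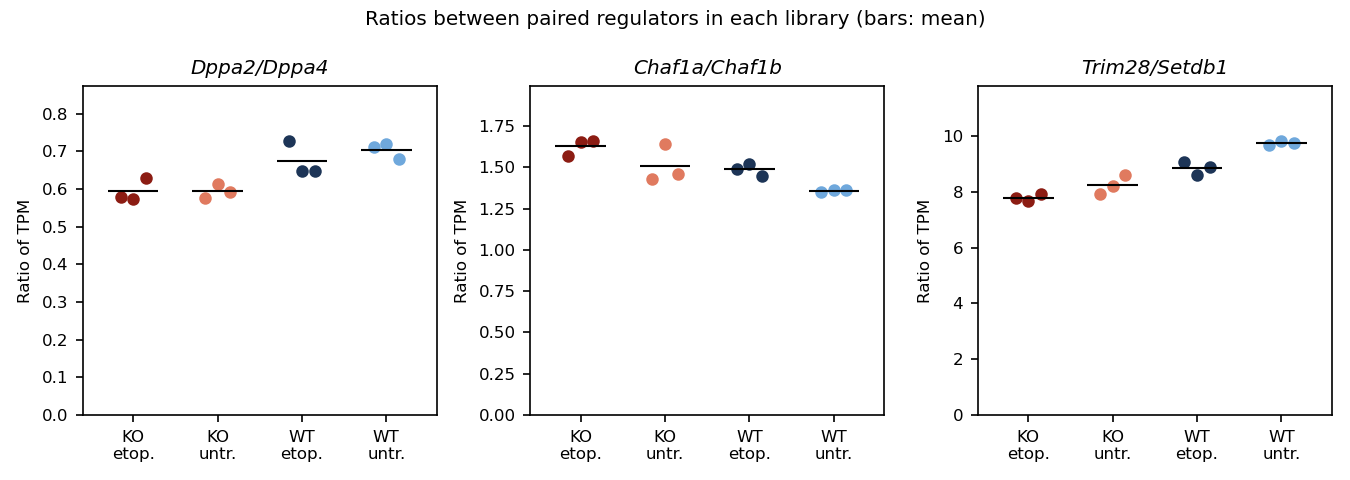
Ratios of TPM between 3 pairs of regulators in each library, with axes that start at 0 and bars at the group mean. In each panel all KO libraries lie on one side of all WT libraries of the same treatment: below for Dppa2/Dppa4 and Trim28/Setdb1, above for Chaf1a/Chaf1b.

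Pcgf6 and Ehmt2 showed no difference between the genotypes that passed the test. PCGF6 is the subunit that defines the polycomb complex PRC1.6, and G9a, from Ehmt2, methylates histone H3 at silent genes outside constitutive heterochromatin. Pcgf6 (chromosome 19, 47022056 to 47039379, minus strand) had 71.2, 68.1 and 76.4 TPM in untreated KO, against 72.8, 76.1 and 80.4 TPM in untreated WT. Under etoposide it had 74.4, 62.1 and 56.9 TPM in KO, against 64.1, 65.1 and 61.6 TPM in WT. It was the least precise of the 10, with 95% intervals of −0.26 to 0.08 in untreated cells and −0.16 to 0.18 under etoposide, and the interval in untreated cells includes the change of Chaf1b.

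Ehmt2 (chromosome 17, 35117427 to 35133049, plus strand) had 83.2, 87.8 and 88.4 TPM in untreated KO, against 84.1, 90.1 and 85.1 TPM in untreated WT. In treated cells Ehmt2 had 81.9, 78.2 and 79.7 TPM in KO, against 80.9, 78.5 and 84.0 TPM in WT. The libraries of the genotypes were intermixed, and the intervals of the change were −0.08 to 0.08 and −0.10 to 0.06.

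Promoters are shown here for Trim28 and Setdb1, whose RNAs changed in opposite directions in untreated cells. Zmym2 and Chaf1b, which had the largest changes there, and Chaf1a, the CAF-1 partner of Chaf1b, are also shown. Kdm1a, Pcgf6 and Ehmt2 had windows too, which are not printed. The sequence is from RefSeq in GRCm38.p6, which is an older build than the GRCm39 of the expression tables. The windows end at the annotated start and begin at most 250 bases before it. Capitals mark, on either strand, the E2F core GCGGGAA, the NF-Y box CCAAT and the GC box GGGCGG, which do not overlap one another in these windows. The windows are chr7:13023902-13024151 for Trim28 (plus strand), chr3:95357203-95357452 for Setdb1 (minus strand), chr17:56040166-56040415 for Chaf1a, chr16:93883651-93883899 for Chaf1b and chr14:56886353-56886528 for Zmym2 (plus strand for all 3).
Trim28: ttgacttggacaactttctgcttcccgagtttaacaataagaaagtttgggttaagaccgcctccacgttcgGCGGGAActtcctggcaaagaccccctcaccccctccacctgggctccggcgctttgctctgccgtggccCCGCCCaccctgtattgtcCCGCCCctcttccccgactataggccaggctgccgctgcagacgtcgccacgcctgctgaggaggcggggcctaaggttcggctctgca
Setdb1: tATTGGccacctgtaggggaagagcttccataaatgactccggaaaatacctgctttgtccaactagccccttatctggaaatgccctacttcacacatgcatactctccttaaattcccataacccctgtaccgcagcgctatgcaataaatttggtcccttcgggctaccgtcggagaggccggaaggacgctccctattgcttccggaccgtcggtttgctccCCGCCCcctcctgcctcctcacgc
Chaf1a: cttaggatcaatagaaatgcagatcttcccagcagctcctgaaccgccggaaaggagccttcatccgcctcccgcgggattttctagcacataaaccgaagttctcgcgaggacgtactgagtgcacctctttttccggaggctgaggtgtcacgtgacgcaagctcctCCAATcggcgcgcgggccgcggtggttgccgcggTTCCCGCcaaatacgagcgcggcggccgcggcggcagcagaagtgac
Chaf1b: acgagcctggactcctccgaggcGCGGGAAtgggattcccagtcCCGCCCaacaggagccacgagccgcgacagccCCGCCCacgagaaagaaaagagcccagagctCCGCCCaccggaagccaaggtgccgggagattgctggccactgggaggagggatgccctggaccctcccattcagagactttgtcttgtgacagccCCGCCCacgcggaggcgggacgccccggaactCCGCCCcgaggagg
Zmym2: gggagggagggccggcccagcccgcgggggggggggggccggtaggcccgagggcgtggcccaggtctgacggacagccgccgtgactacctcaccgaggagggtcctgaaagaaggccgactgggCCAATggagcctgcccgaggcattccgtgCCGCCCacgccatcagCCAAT
The E2F core occurred once each in Trim28, Chaf1a and Chaf1b and in none of the other 5 regulators with a window, and it occurred in 3.82% of all 32851 promoter windows of 250 bases. Chaf1b held 5 GC boxes, Trim28 held 2, and Setdb1, Zmym2, Pcgf6 and Ehmt2 held 1 each, while Chaf1a and Kdm1a held none. At least 1 GC box was present in 32.7% of all windows of 250 bases. Zmym2 held 2 NF-Y boxes, Setdb1, Kdm1a and Chaf1a held 1 each, and the others with a window held none. At least 1 NF-Y box was present in 33.8% of all windows of 250 bases. Both shares are smaller for shorter windows. Chaf1a held 28 CpG sites, Chaf1b 21, Trim28 17 and Setdb1 13, where the median of all windows of 250 bases was 6. Zmym2 held 15 in its shorter window of 176 bases, where the median for that length was 3. Zmym2 had 2 starts in the sequences used, of which 1 is shown. The motifs were chosen with the sequences in view and a match says only that these letters are present. Dppa2 and Dppa4 had no window among the sequences used.

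Other components of the complexes to which these repressors belong were called about as often as genes in general. Of 57 such partner genes, 15 were higher and 12 lower in untreated KO (background 28.1% higher and 21.5% lower, median change 0.03 against 0.04 over all tested genes), and 14 were higher and 12 lower under etoposide (background 22.5% and 21.7%). The counts for single complexes, which rest on few genes, are to be read against the same shares. In untreated cells 16 of the 27 calls held in every alternative processing, and the genes named next as higher or lower are among those 16.

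Around TRIM28 and SETDB1, 5 of 16 partners were higher and 2 lower in untreated KO (background 28.1% and 21.5%). Suv39h1, another methyltransferase of histone H3 at heterochromatin, had 22.5, 23.1 and 20.9 TPM in untreated KO, against 14.9, 16.2 and 16.6 TPM in untreated WT (0.45 ± 0.06, limma adjusted p = 6.06e-05). Zfp809, a zinc-finger protein that guides TRIM28 to retroviral sequence in mouse cells, was at 91.4 ± 1.38 TPM in untreated KO and 73.5 ± 2.29 TPM in untreated WT (0.31 ± 0.04). The HUSH subunit gene Pphln1 (0.27 ± 0.04) and the TRIM28 relative Trim24 (0.15 ± 0.03) were also higher. Cbx3, which encodes HP1 gamma, a reader of that methylation, was lower (−0.16 ± 0.03).

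Around LSD1, 3 of 11 partners were higher and 3 lower in untreated KO, and 3 in all were called without replicate 2 of untreated WT (background 49.6%). Rcor2, the CoREST form prominent in mouse embryonic stem cells, had 114, 119 and 125 TPM in untreated KO, against 150.4, 153 and 151 TPM in untreated WT. Its libraries did not overlap, and its change of −0.34 ± 0.03 (limma adjusted p = 3.74e-06) was larger in size than the estimates for Kdm1a and Zmym2, a difference that was not tested. Hdac2, the deacetylase of the same assembly, changed the other way, at 251 ± 6.88 TPM in untreated KO and 225 ± 1.66 TPM in untreated WT (0.16 ± 0.02).

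Among PRC1.6 subunits other than PCGF6, 5 of 11 were lower and 1 higher in untreated KO (background 21.5% lower and 28.1% higher), and 5 were lower and 2 higher under etoposide (background 21.7% and 22.5%), or 4 in all without replicate 2 of treated WT. The lower ones included Tfdp2 (−0.23 ± 0.04) and Tfdp1 (−0.15 ± 0.02), DP partners of E2F6, L3mbtl2 (−0.14 ± 0.03), a chromatin reader, and Max (−0.13 ± 0.02), the DNA-binding partner of MGA. Of 5 other PCGF genes, which define other polycomb complexes, 3 were higher in untreated KO: Pcgf1 (0.42 ± 0.11), Bmi1 (0.28 ± 0.05) and Pcgf3 (0.19 ± 0.04). Among 10 partners of CAF-1 and other chaperones of histones H3 and H4, 3 were higher and 2 lower, with Ubn1 of the HIRA complex at 0.22 ± 0.04. These 5 calls were 2 without replicate 1 of untreated WT and 3 without replicate 3 of untreated WT or replicate 1 or 3 of untreated KO. None of the 4 partners of G9a passed the test in untreated cells (limma, adjusted over all genes), 1 of them had an unadjusted p under 0.05, and 1 was called in 6 of the 21 alternatives. These 4 were Ehmt1, Wiz, Zfp644 and Cdyl.

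**Figure D4:**
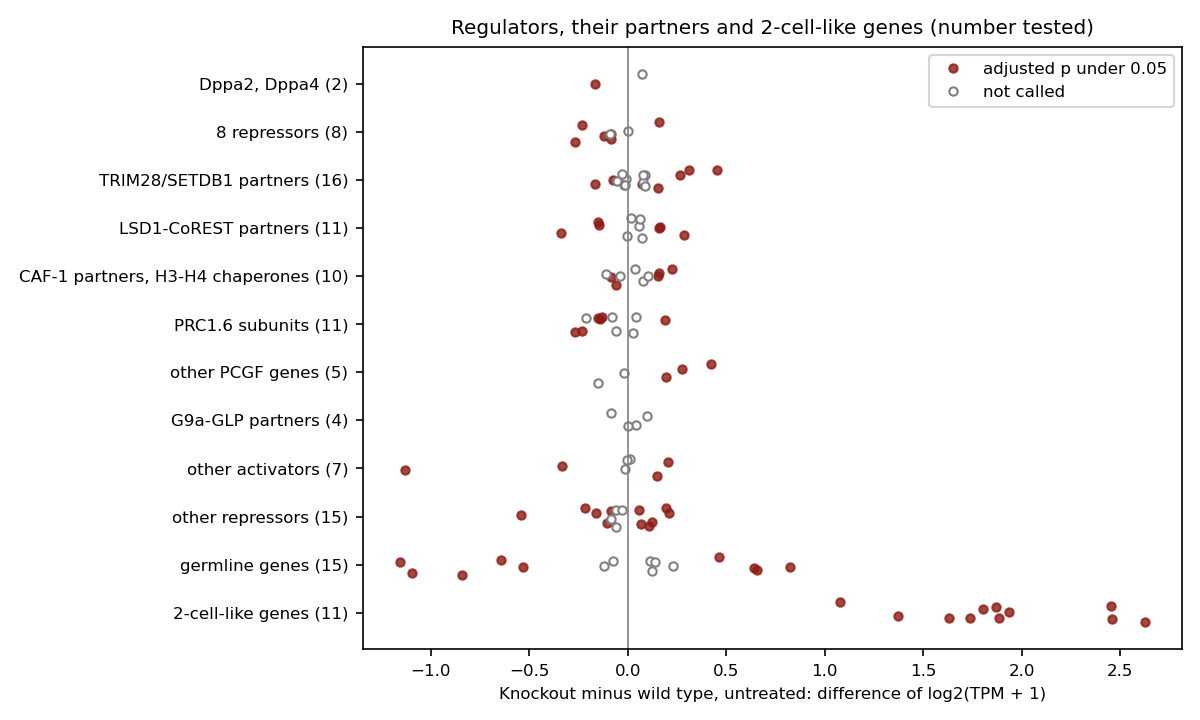
Change in untreated cells (KO minus WT, difference of log2(TPM + 1)) of every tested gene in the lists of regulators, complex partners, other factors and target genes, 1 point per gene and the number tested in brackets. Filled points had an adjusted p under 0.05. Regulators and partners lie between −0.34 and 0.45, Atr among the other activators lies at −1.13, and the 2-cell-like genes lie between 1.08 and 2.62.

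Other factors reported to act on the 2-cell-like state included the largest changes among regulators of any list. Atr, the kinase of the replication stress checkpoint, which is reported to promote 2-cell-like cells in mouse cultures, had 10.4, 10.1 and 9.56 TPM in untreated KO, against 21.6, 22.3 and 25.7 TPM in untreated WT. Under etoposide it had 11.8, 12.7 and 12.5 TPM in KO, against 27.0, 27.3 and 28.7 TPM in WT. No KO library reached a WT library in either comparison, with changes of −1.13 ± 0.06 (limma adjusted p = 6.08e-08) and −1.10 ± 0.06 (adjusted p = 9.76e-08). Of 10 names of such activators, 8 were in the tables and 7 were tested. Nelfa (0.20 ± 0.04) and Tbx3 (0.15 ± 0.03) were higher in untreated KO, Dppa3 (−0.33 ± 0.08) and Atr were lower, and Smarca5, Nr5a2 and Trp53 did not pass the test. The names Dux and Obox4 were not found. The DUX family gene Duxf3 was at most 0.0414 TPM in any library, too low to compare the groups. It had 0.00813, 0.0414 and 0.0121 TPM in untreated KO, and was listed at 0 in all 3 untreated WT libraries. Under etoposide it had 0.0188, 0 and 0 TPM in KO, against 0.00887, 0.0357 and 0 TPM in WT.

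Of 15 other repressors, 6 were higher and 5 lower in untreated KO (background 28.1% higher and 21.5% lower). These 11 calls were 7 without replicate 1, 2 or 3 of untreated WT and 6 without replicate 3 of untreated KO. Lin28a, which encodes an RNA-binding protein that restrains the state in mouse cells together with nucleolin, had 127, 127 and 132 TPM in untreated KO, against 193, 189 and 181 TPM in untreated WT (−0.54 ± 0.04, limma adjusted p = 2.74e-07). The maintenance methylation factor Uhrf1 was at 479 ± 10.6 TPM in untreated KO and 558 ± 12.5 TPM in untreated WT (−0.22 ± 0.02), and Smchd1, a chromatin protein that restrains Dux, was also lower (−0.16 ± 0.04). The heterochromatin and replication timing factor Rif1 (0.20 ± 0.03) and Ep400, a chromatin remodeler (0.21 ± 0.03), were higher.

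Genes of the 2-cell-like state, which these regulators control, were higher in KO. The summed level of the 15 genes of the 2-cell-like list found in the tables was 57.0 to 65.0 TPM in untreated KO and 6.06 to 6.99 TPM in untreated WT, and 60.2 to 70.7 TPM in treated KO and 5.97 to 7.84 TPM in treated WT. KO and WT did not overlap. In bulk RNA a larger share of cells in the state and more RNA per such cell cannot be told apart. The list had 17 names, of which 11 were tested. Since these passed the filter through the KO libraries where they are high, their number is no support for a difference. Zscan4c had 5.19, 5.69 and 5.04 TPM in untreated KO, against 0.607, 0.618 and 0.728 TPM in untreated WT, and like the rest of its family it has near-identical copies that share reads. Tmem92, picked after its values were seen, had 4.41, 3.87 and 3.69 TPM in untreated KO, against 0.357, 0.662 and 0.290 TPM in untreated WT. It too passed the filter through the KO libraries, and no test is given for it.

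Germline genes, a further set of targets of PRC1.6, SETDB1 and G9a in mouse embryonic stem cells, included calls in both directions, with 4 of 15 tested higher and 5 lower in untreated KO (background 28.1% and 21.5%). The 4 with the lowest adjusted p were all lower: Smc1b and Stag3, subunits of meiotic cohesin, at −1.16 ± 0.10 and −0.53 ± 0.06, the meiotic recombination factor Zcwpw1 at −1.10 ± 0.12, and Stk31 at −0.84 ± 0.12. Smc1b stood at 1.45 ± 0.282 TPM in untreated KO and 4.44 ± 0.325 TPM in untreated WT. The 4 called higher were Taf7l (0.82), Slc25a31 (0.66), Ddx4 (0.64) and Mov10l1 (0.46). Of these, Slc25a31 stood at only 1.86 TPM in untreated KO and 0.833 TPM in untreated WT.

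The RNA of most of the repressors was lower with etoposide in both genotypes. In KO 6 of the 10 regulators were lower with etoposide and none higher (background 25.0% of tested genes, 10.5% lower and 14.5% higher). In WT 6 were lower and 1 higher (background 34.3%, 13.5% lower and 20.8% higher). Of the 4786 genes as abundant as the regulators, 33.7% were called in KO and 43.3% in WT, in either direction. Of the calls over all genes in WT 60.7% were higher, against 45.5% with median-of-ratios scaling and 43.9% with quantile normalization. Treated and untreated libraries failed to overlap for 6 of the 10 regulators in KO and 9 in WT, against 39.5% and 46.6% of all tested genes. These comparisons share libraries with those of the genotypes.

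Trim28 changed the most. It was at 1357 ± 4.82 TPM in treated KO and 1558 ± 27.5 TPM in untreated KO (−0.20 ± 0.02, limma adjusted p = 7.08e-06), and at 1354 ± 23.2 TPM in treated WT and 1654 ± 4.97 TPM in untreated WT (−0.29 ± 0.02, adjusted p = 1.18e-07). Setdb1 was lower by −0.12 ± 0.02 in KO (limma adjusted p = 0.00392) and by −0.15 ± 0.02 in WT (adjusted p = 0.000559). Zmym2 was at −0.15 ± 0.04 in KO and −0.16 ± 0.04 in WT, and Chaf1b at −0.14 ± 0.04 and −0.15 ± 0.04. Kdm1a changed by −0.06 ± 0.02 in each. All 5 passed the test in both genotypes, although in KO the calls of Zmym2, Chaf1b and Kdm1a ended in 4, 11 and 13 of 21 alternatives, and in WT in 1, 2 and 7. With quantile normalization the change of Kdm1a in WT was −0.0032 (limma adjusted p = 0.925). The call of Kdm1a in WT also ended without any 1 of the 6 WT libraries, that of Chaf1b without replicate 2 of untreated or of treated WT, and that of Zmym2 without replicate 3 of untreated WT.

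The remaining members passed in 1 genotype or in none. Pcgf6 fell in WT, with 64.1, 65.1 and 61.6 TPM with etoposide against 72.8, 76.1 and 80.4 TPM without (−0.26 ± 0.08, limma adjusted p = 0.0228). That call ended in 4 of 21 alternatives, without the filter on low values, without replicate 2 or 3 of untreated WT and without replicate 3 of treated WT (highest adjusted p = 0.0826). In KO its change was −0.16 ± 0.08 (adjusted p = 0.162), and it was called as lower without replicate 1 of treated KO, the library at 74.4 TPM. Ehmt2 was at −0.11 ± 0.04 in KO (limma adjusted p = 0.0468, a call that ended in 13 of 21 alternatives) and −0.09 ± 0.04 in WT (adjusted p = 0.0885). Chaf1a did not pass in either, with 95% intervals of −0.09 to 0.03 in KO and −0.08 to 0.04 in WT. Dppa4 rose in WT by 0.14 ± 0.04 (limma adjusted p = 0.00957), against 0.07 ± 0.04 in KO (adjusted p = 0.183). Dppa2 was at 0.07 ± 0.05 in each genotype and did not pass.

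Whether the response to etoposide differed between KO and WT was tested as an interaction, and none of the 10 regulators passed (limma, background 1.23% of tested genes, 0.0709% with a higher and 1.16% with a lower difference). At an unadjusted p under 0.05 there was 1, Trim28, whose fall was smaller in KO by 0.09 ± 0.03 (limma adjusted p = 0.158). The intervals of the other 9 differences reached from −0.18 to 0.34, with the widest for Pcgf6 (−0.15 to 0.34) and the narrowest for Kdm1a (−0.06 to 0.07).

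Other components were also mostly lower with etoposide among those called. Of the 57 partners, 14 were lower and 3 higher in KO (background 10.5% and 14.5%), and 19 were lower and 6 higher in WT (background 13.5% and 20.8%). Of these partners, Rcor2 changed by −0.23 ± 0.03 in KO and −0.25 ± 0.03 in WT, and Pcgf3 rose by 0.40 ± 0.04 and 0.45 ± 0.04. The other listed activators and repressors are not among the 57. Of those, Lin28a changed by −0.39 ± 0.04 in KO and −0.51 ± 0.04 in WT, and Myc by −0.34 ± 0.06 and −0.48 ± 0.06. Atr rose by 0.28 ± 0.06 in KO and 0.25 ± 0.06 in WT. None of the 11 tested 2-cell-like genes passed the test for etoposide in KO (limma adjusted p under 0.05), and 0 had an unadjusted p under 0.05. In WT 0 of the 11 passed and 1 had an unadjusted p under 0.05 (limma). Almost all of these genes stood under 1 TPM in WT, where log2(TPM + 1) compresses a change, so the test there says little. Usp17la, singled out after its values were seen, had 0.319, 0.588 and 0.328 TPM in treated WT, against 0.105, 0.203 and 0.0914 TPM in untreated WT. These libraries did not overlap, which was also so for 46.6% of all tested genes in this comparison.

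No regulator reached a change of 0.5 on the log2 scale between the genotypes, so the profile of Zmym2, the largest, was compared with all tested genes over the 12 libraries. The nearest profiles were those of Brpf3, Kcnk5 and Cdh1, at root mean square distances of 0.0315, 0.0346 and 0.0360 between mean-centred log2(TPM + 1) values. Brpf3 stood at 40.9 TPM in treated KO, 47.0 in untreated KO, 49.6 in treated WT and 56.6 in untreated WT. All 3 had their lowest group mean in treated KO and their highest in untreated WT, which was also the order of Zmym2, at 33.8 ± 0.314 and 45.5 ± 2.47 TPM. The genes were picked for nearness to Zmym2 in these same libraries, so this shared order follows from the choice.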

How the data were processed

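The deposited tables hold 41081 to 41083 entries for each of the 12 libraries. Entries with the same gene identifier were summed, which gave 1 value per library for each of 41079 identifiers. Library preparation used poly(A) selection, per the labels' protocols. Per the submitters' processing notes, the authors used Trim Galore 0.6.6, cutadapt 3.4, HISAT2 2.2.1 and StringTie 2.2.1 with GRCm39. The authors deposited TPM values, which divide by gene length and sum to 1 total in every library, per the file headers and the values. They also deposited FPKM values, which divide by gene length and mapped fragments, per the file headers. A coverage column gives the mean depth per base of a gene as deposited. The most frequent ratio of coverage to FPKM was taken as the aligned bases per library. Between 27.9% and 28.4% of genes above 1 FPKM lay at that ratio. The values are not counts, so no count model was used.

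Differences were tested with limma 3.58.1 in R 4.3.3 on log2(TPM + 1) in 1 fit of 4 groups. The fit took the 14107 genes with a mean of at least 1 TPM over all libraries, with Benjamini-Hochberg adjustment over all of them and a threshold of 0.05. The pseudocount of 1 understates changes of low genes. Within groups, libraries correlated at 0.994 to 0.995 across genes (not independent points), and no 2 libraries were duplicates. The code was tested on simulated data. Ratios were tested with exact permutation tests in Python 3.11.15 with scipy 1.17.1, and promoters came from a RefSeq table of GRCm38.p6.

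The regulators and all lists were chosen with earlier results of these data known. Named genes were Bod1l, the 10 regulators, partners in their complexes, other listed activators and repressors, the 4 genes of lowest adjusted p from the 2-cell-like and germline lists, overlapping genes, and the 3 profiles nearest to the regulator with the largest change. The germline genes called higher in untreated KO were added after their values were seen. Not every gene the rule allows is named. Alternatives were a pseudocount of 0.1, no filter, a minimum mean of 5 TPM, FPKM, quantile normalization, median-of-ratios scaling, a block for the replicate number, a robust spread, the compared groups alone, and each library left out in turn.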

Additional observations from a re-analysis of the deposited data

How the results depend on the processing

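Calls between the genotypes held in all 21 alternatives for Setdb1, Zmym2, Chaf1b, Dppa2 and Kdm1a in both comparisons and for Trim28 in untreated cells. No value called for a regulator changed sign in any alternative. More calls with etoposide were lost in the alternatives. The number of regulators called was 6 for etoposide in KO, 3 when the compared groups were fitted alone and 2 to 5 when single libraries were left out, the lowest without replicate 3 of untreated KO. It was 7 for etoposide in WT and 4 to 7 without single libraries, with 4 without replicate 2 or replicate 3 of untreated WT. For the interaction over all genes, 174 were called, 104 without the filter, 102 with quantile normalization and 93 to 131 without single libraries.

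No clear effect shared by libraries of the same replicate number was seen. Same-numbered libraries correlated at −0.0372 to 0.0453 in their deviations from the group means. For replicate 3 the same-numbered library was the closest in each comparison, at 0.0453 or less. Low correlations do not show that the libraries were prepared unpaired. With the replicate number as a block, 7 regulators were called in untreated cells, 6 under etoposide, 7 for etoposide in WT and 4 for etoposide in KO.

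Some listed sets moved by more than 1.5 times in untreated cells. Other repressors had 11 calls, and 7 with FPKM, median-of-ratios scaling or the compared groups alone. Chaperones had 5 calls, 3 without the filter or with the compared groups alone and 2 with quantile normalization. Partners of LSD1 had 6 calls and 3 without replicate 2 of untreated WT. Germline genes had 9 calls and 5 with the higher filter. Of the 11 2-cell-like genes, 5 were tested and called with FPKM and 2 with the higher filter, since fewer genes passed.

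The values that changed sign were not called in any of these alternatives and lay near 0, and the cause was not tested. Between the untreated genotypes Ehmt2 was at −0.027 with FPKM, −0.033 with median-of-ratios scaling, −0.00338 with quantile normalization and −0.018 to 0.031 without single libraries. Under etoposide the FPKM values were −0.014 for Dppa4, −0.014 for Trim28 and −0.00680 for Pcgf6. Without single libraries the ranges there were −0.030 to 0.023 for Dppa4, −0.00467 to 0.018 for Trim28, −0.096 to 0.094 for Pcgf6 and −0.045 to 0.0037 for Ehmt2. Bod1l with etoposide in WT ranged over −0.051 to 0.016. For the interaction, Dppa2 was at 0.0042 with FPKM, 0.025 with median-of-ratios scaling and −0.039 to 0.039 without single libraries. Kdm1a was at −0.026 with quantile normalization and −0.010 to 0.016 without single libraries. Chaf1a was at 0.0020 with FPKM, 0.022 with median-of-ratios scaling and −0.030 to 0.010 without single libraries. Ehmt2 was at 0.0081 with median-of-ratios scaling and −0.053 to 0.0024 without single libraries. The ranges of the rest were −0.045 to 0.057 for Chaf1b, −0.0076 to 0.18 for Pcgf6 and −0.027 to 0.048 for Zmym2.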
